A study of Mus musculus with 22 samples.

Results

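Interferon response genes were followed in the livers of 22 mice as a set of 38 genes taken from a list of gene symbols. The list was matched to the annotation of the array, each of the 38 symbols stood on exactly 1 row, and the 38 genes are part of 24011 genes measured. The list holds 5 transcription factors, 4 sensors of foreign RNA or DNA, 6 genes of the IFIT and ISG15 system, 5 oligoadenylate synthetases, 9 other antiviral effectors, 6 interferon-inducible GTPases and 3 genes of antigen processing.

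Total RNA of each liver was hybridised to its own Affymetrix MoGene 2.0 ST array. The mice were female, of the C57BL/6J background and 12 weeks old. The 4 groups were wild type on regular chow (WT_chow, n = 5), wild type fed UDCA (WT_UDCA, n = 6), Cyp2c70 knockout on regular chow (KO_chow, n = 5) and Cyp2c70 knockout fed UDCA (KO_UDCA, n = 6). UDCA, ursodeoxycholic acid, is a hydrophilic bile acid used against cholestatic liver disease, and the mice ate it at 0.1% of their diet over the last 7 weeks, starting when they were 5 weeks old. Muricholic acids, the hydrophilic bile acids of mice, are products of the enzyme that Cyp2c70 encodes. The sources used here do not give the way the knockout allele was made, and Cyp2c70 signal remained, at 10.65 ± 0.12 log2 units in KO_chow (SD, n = 5) against 11.49 ± 0.14 in WT_chow (n = 5). Replicate numbers name a mouse and pair nothing.

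Interferons are secreted proteins that alert cells to infection. Type I interferons, interferon gamma and interferon lambda bind different receptors, all of which act through Janus kinases and STAT proteins. Type I and lambda signals lead to a complex with Stat2 and Irf9 that binds interferon-stimulated response elements (ISRE), and interferon gamma acts through gamma-activated sites (GAS). The genes switched on in this way recognise viral nucleic acid, block viral replication, attack vacuoles that hold microbes and present antigen, and in the liver both hepatocytes and non-parenchymal cells can respond.

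The promoters show which of these elements lie near the start of each gene. RefSeq windows of GRCm38.p6 that reach from 250 bases before to 50 bases after the start were found by symbol for 29 of the 38 genes. The others were Oas2, Rtp4, Iigp1, Usp18, Zbp1, Dhx58, Parp14, Mx1 and Mx2. An ISRE was searched as GAAA, NN (any pair of bases) and GAAA in a row on either strand and a GAS as TTCNNNGAA, which reads the same on both strands. ISRE letters stood in 15 of the 29 genes (51.7%), against 3.99% of all genes with a window, and GAS letters in 9 of the 29 (31.0%), against 9.55% of all genes. All 5 GTPase genes with a window held ISRE letters, as did both sensors with a window, and 0 of the 3 antigen processing genes did. The windows of Tap1 and Psmb9 share 275 bases and count as separate genes here. A match is a run of letters and not a measured binding site.

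The 180 bases before the start of 6 genes are printed 5′ to 3′ on the strand of the gene, with the matches in capitals, to set the gene with the clearest difference (Irf8) and its fellow transcription factor Irf1 beside a member of the ISG15, IFIT, oligoadenylate synthetase and GTPase groups. Irf8 (chr8:120736178-120736357, plus strand) held 2 GAS matches and no ISRE match, and Irf1 (chr11:53769834-53770013, plus) held 1 GAS match. Isg15 (chr4:156200819-156200998, minus) held 3 ISRE matches that overlap, and Ifit1 (chr19:34640709-34640888, plus) held 2 separate ones. Oas1a (chr5:120907526-120907705, minus) and Igtp (chr11:58199376-58199555, plus) held both kinds, with 2 overlapping ISRE matches in Oas1a and 1 in Igtp.
Irf8: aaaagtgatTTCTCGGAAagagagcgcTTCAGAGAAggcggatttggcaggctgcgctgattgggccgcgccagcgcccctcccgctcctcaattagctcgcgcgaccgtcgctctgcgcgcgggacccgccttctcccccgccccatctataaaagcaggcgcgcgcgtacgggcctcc
Irf1: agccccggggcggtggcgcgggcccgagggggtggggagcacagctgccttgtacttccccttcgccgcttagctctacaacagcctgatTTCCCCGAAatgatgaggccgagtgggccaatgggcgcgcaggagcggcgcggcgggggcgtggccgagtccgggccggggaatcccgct
Isg15: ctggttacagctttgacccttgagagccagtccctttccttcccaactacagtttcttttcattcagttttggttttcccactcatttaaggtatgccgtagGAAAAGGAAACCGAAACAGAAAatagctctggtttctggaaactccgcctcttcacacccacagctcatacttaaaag
Ifit1: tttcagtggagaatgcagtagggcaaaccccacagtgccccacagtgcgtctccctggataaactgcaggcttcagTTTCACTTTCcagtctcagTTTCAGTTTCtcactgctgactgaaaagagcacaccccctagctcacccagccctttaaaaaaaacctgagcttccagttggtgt
Oas1a: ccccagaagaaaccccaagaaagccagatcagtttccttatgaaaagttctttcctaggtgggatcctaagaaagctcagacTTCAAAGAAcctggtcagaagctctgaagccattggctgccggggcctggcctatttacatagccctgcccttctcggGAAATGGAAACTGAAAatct
Igtp: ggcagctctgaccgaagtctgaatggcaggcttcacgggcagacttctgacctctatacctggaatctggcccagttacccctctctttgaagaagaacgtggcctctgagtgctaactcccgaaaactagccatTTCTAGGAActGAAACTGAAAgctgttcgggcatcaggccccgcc

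Values are log2 of the authors' array intensities, so a difference of 1 is a doubling, and the level of one gene is not set against that of another. The array median lay between 4.84 and 4.96 log2 units in every mouse. Of the 38 genes, Mx1 was below the median of its array in 21 of 22 mice and Oas1a in 9. The mean of 6 hepatocyte markers was 11.66 to 11.86 log2 units in the 22 livers, as the tissue label calls for. Differences were tested with limma across all 24011 genes, and a gene was called at a Benjamini-Hochberg adjusted p below 0.05. In RNA from whole tissue, more cells of a type and more RNA per cell cannot be told apart.

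One mouse stood apart before any comparison. KO_chow replicate 2 had the highest level of all 22 mice in 27 of the 38 genes (71.1%), whereas it was the highest in 9.83% of all genes. It exceeded every WT_chow mouse in 33 of the 38 (86.8%), against 24% of all genes. Averaged over the 38 genes, its level lay 0.59 log2 units above the WT_chow mean. The other KO_chow mice, replicates 1, 3, 4 and 5, lay at -0.09, 0.15, 0.01 and 0.08. The 5 WT_chow mice ran from -0.09 to 0.12, the 6 WT_UDCA mice from -0.09 to 0.16 and the 6 KO_UDCA mice from -0.11 to 0.13. Replicates 1, 4 and 5 of KO_chow were thus inside the range of the wild type on chow, replicate 3 was just above it and replicate 2 was far above it.

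**Figure D1:**
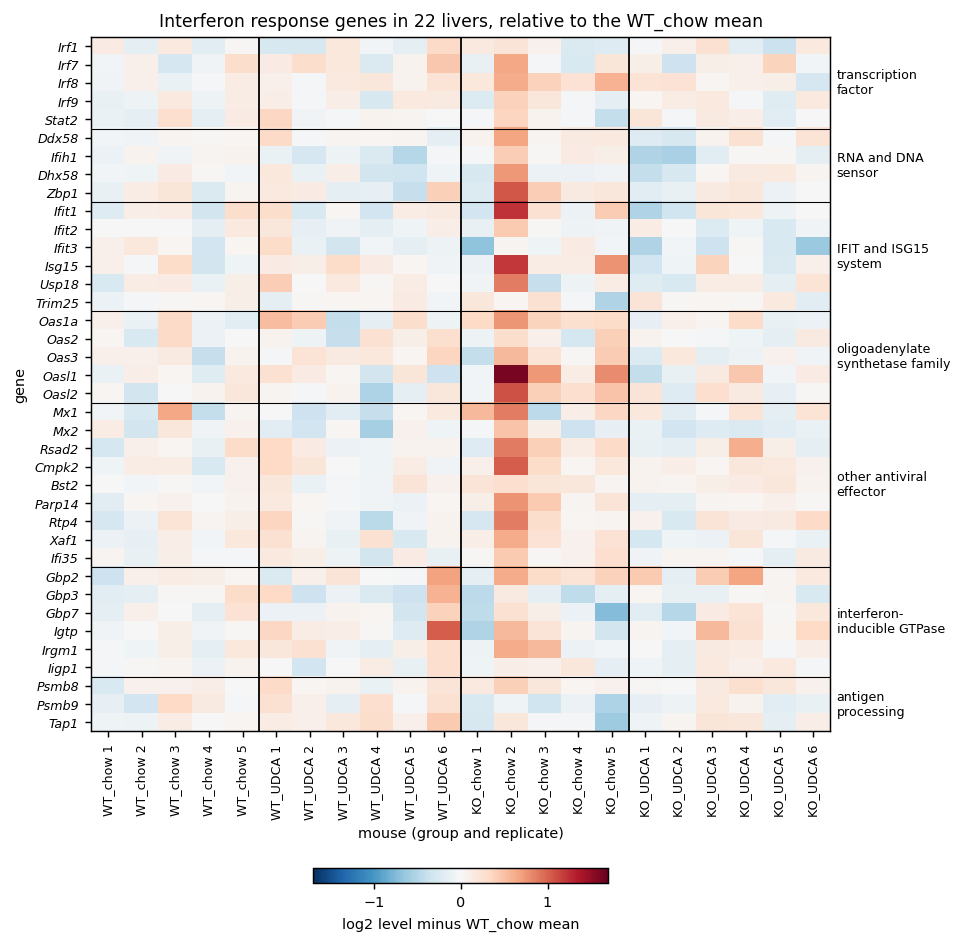
Heat map of the 38 interferon response genes (rows, by role) in 22 livers (columns, by group and replicate); colour gives the log2 level minus the mean of the 5 WT_chow mice. The column of KO_chow replicate 2 lies above the WT_chow mean in 37 of 38 rows, and that of WT_UDCA replicate 6 holds the highest value in 5 of the 6 rows of GTPases.

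The excess in KO_chow replicate 2 reached every gene of the set but not to the same degree. Its level exceeded the mean of the other 4 KO_chow mice in 38 of 38 genes, with a median excess of 0.50 log2 units, while the median over all genes was -0.01. The excess passed 0.5 log2 units in 19 of the 38 genes and in 4.1% of all genes. Oasl1, a synthetase-like protein that in mice restrains the translation of Irf7, was 7.87 in this mouse and 6.67 on average in the other 4. Ifit1, which binds viral RNA, was 7.84 against 6.68, Usp18, which removes ISG15 and dampens the type I receptor, was 8.35 against 7.37, and Isg15, the ubiquitin-like modifier itself, was 6.43 against 5.45. By role, replicate 2 was the highest of all 22 mice in 9 of 9 other antiviral effectors, 4 of 4 sensors, 4 of 5 transcription factors, 4 of 5 oligoadenylate synthetases, 4 of 6 genes of the IFIT and ISG15 system, 1 of 6 GTPases and 1 of 3 antigen processing genes.

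A second mouse carried another profile. WT_UDCA replicate 6 was the highest of all 22 in 7 of the 38 genes (18.4%), whereas it was the highest in 3.44% of all genes. Of the 7, 5 were GTPases (Igtp, Gbp2, Gbp3, Gbp7 and Iigp1) and the others Irf1 and Tap1. Its mean over the 6 GTPases lay 0.55 log2 units above WT_chow, compared with -0.16 to 0.09 in the other WT_UDCA mice. Igtp, a GTPase that acts on vacuoles of intracellular microbes, was 8.82 there and 7.87 on average in the other 5 WT_UDCA mice. Its oligoadenylate synthetases lay only 0.08 above WT_chow and its other antiviral effectors 0.02. The same mouse had the highest Cxcl9 of the 22, at 9.05. Cxcl9 encodes a chemokine that interferon gamma induces. The level of Ifng, the gene of interferon gamma, was 3.08 in this mouse. Ifng ran from 3.02 to 3.81 over the 22 mice and was below the array median in every one. In WT_UDCA replicate 6 the mean of 11 T and NK cell markers was 4.74, the highest of the WT_UDCA group, which ran from 4.42 to 4.74. It was also the highest WT_UDCA mouse for the mean markers of Kupffer cells (7.90), sinusoidal endothelial cells (8.17), monocyte-derived macrophages (5.13) and B and plasma cells (5.07). The part of those cells in the profile was not tested.

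**Figure D2:**
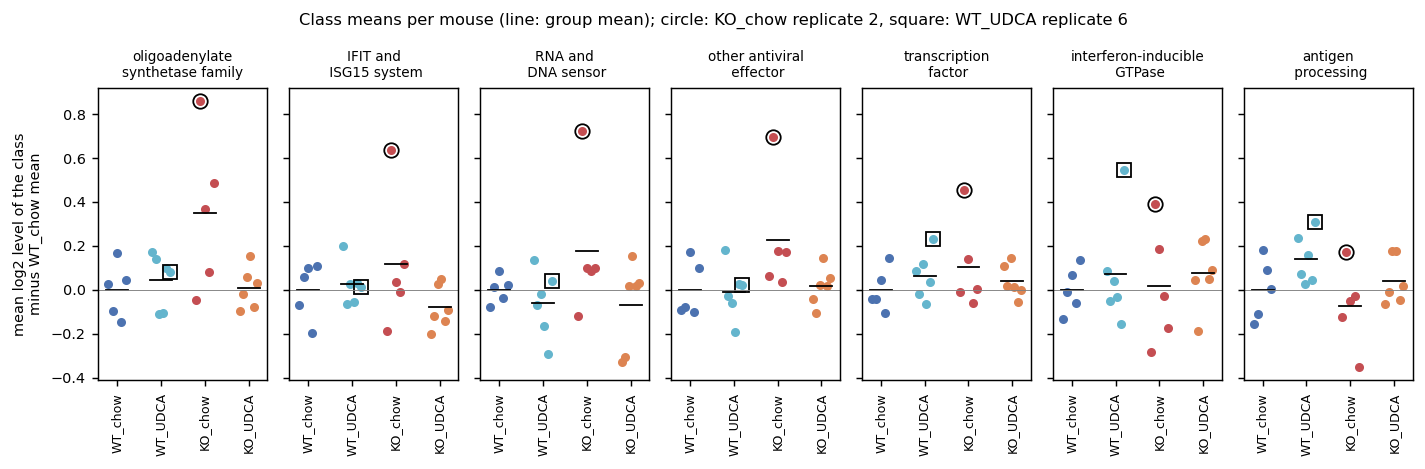
Mean log2 level of each role group minus its WT_chow mean (y axis), 1 point per mouse and a line at the group mean; the circle marks KO_chow replicate 2 and the square WT_UDCA replicate 6. The circle is the top point for the oligoadenylate synthetases (0.86), the sensors (0.72) and the other antiviral effectors (0.70), and the square is the top point for the GTPases (0.55).

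The spread between mice was largest in KO_chow. The median SD of the 38 genes was 0.30 log2 units in KO_chow, compared with 0.17 in WT_chow, 0.20 in WT_UDCA and 0.17 in KO_UDCA, while over all genes it was 0.19, 0.17, 0.18 and 0.18. KO_chow had the largest SD of the 4 groups in 28 of the 38 genes (34.8% of all genes). It had the highest mean in 25, for which the share of all genes was not computed. KO_chow replicate 2, the highest of its group in 34 of the 38 genes (20.9% of all genes), enters both counts. The fit shares 1 estimate of spread per gene over the groups, so for genes that vary more in KO_chow the standard errors of comparisons with KO_chow can be too small.

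Whether loss of Cyp2c70 on regular chow altered these genes was asked by setting KO_chow against WT_chow. Of the 38 genes only Irf8 was called, 2.63% of the set, against 13.7% of all genes called in either direction and 7.69% called higher (6.03% lower). The median log2 change of the 38 was 0.17, against -0.04 over all genes, and 30 of the 38 lay above 0, as did 42.4% of all genes. At an unadjusted p below 0.05, 9 of the 38 were higher (12.5% of all genes) and 1, Psmb9, was lower (13.1% of all genes). Without KO_chow replicate 2, Irf8 was again the only gene called (9.24% of all genes), and the median change was 0.06. The number called was 5 without KO_chow replicate 1 (15.3% of all genes) and 3 without KO_chow replicate 4 (16%). It was 2 without WT_chow replicate 3 (11.7%), and 1 without any other single mouse of these groups (9.24% to 12.2%).

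Among the transcription factors, Irf8 rose in KO_chow. Irf8 directs the development of monocytes and dendritic cells and is itself induced by interferon gamma. Its level was 5.65, 5.81, 5.60, 5.68 and 5.84 in the 5 WT_chow mice and 5.89, 6.36, 6.11, 5.96 and 6.30 in the 5 KO_chow mice. The groups did not overlap, which held for 5.45% of all genes in this direction and for 3.98% in the other. The log2 change was 0.41 (SE 0.10, 1.33-fold, limma adjusted p = 0.0098). Irf8 remained called when any single mouse of these 2 groups was left out, and was no longer called without KO_chow replicates 2 and 5 together (limma adjusted p = 0.188). The other 4 factors had log2 changes between -0.004 and 0.09, each with an interval that included 0. Irf7, which amplifies type I interferon production, was 6.95 ± 0.36 in KO_chow and 6.85 ± 0.21 in WT_chow (SD, n = 5 each). Irf9 and Stat2, the partners in the ISRE-binding complex, were 7.29 ± 0.25 against 7.26 ± 0.14 and 7.68 ± 0.27 against 7.68 ± 0.20. Irf1, with a GAS match in its promoter like Irf8, was 6.67 ± 0.22 against 6.68 ± 0.16.

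Of the 4 sensors, 0 were called. Zbp1, which senses Z-form nucleic acid and can trigger necroptosis, was 6.48, 6.73, 6.82, 6.36 and 6.65 in WT_chow and 6.38, 7.66, 7.03, 6.76 and 6.80 in KO_chow. The groups overlapped, with replicate 2 highest and replicate 1 near the bottom (log2 change 0.32, SE 0.17, limma adjusted p = 0.259). Ddx58, which encodes the RNA sensor RIG-I, was 8.45, 9.07, 8.45, 8.54 and 8.57 in KO_chow, against 8.33 to 8.44 in WT_chow. Ddx58 and Irf8 were the only genes of the set whose groups did not overlap, 5.26% of the set against 5.45% of all genes. For Ddx58, 4 of the 5 values in KO_chow were 8.57 or less, and the change was not called (0.22, limma adjusted p = 0.252). Ifih1, which encodes the long double-stranded RNA sensor MDA5, had a log2 change of 0.13 and Dhx58, which encodes the regulator LGP2, one of 0.04.

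In the IFIT and ISG15 system 0 of 6 genes were called, and the median log2 change was 0.07. Isg15 was 5.32, 5.21, 5.54, 4.92 and 5.15 in WT_chow and 5.12, 6.43, 5.36, 5.35 and 5.99 in KO_chow. Replicates 2 and 5 lay above all WT_chow mice and the other 3 within their range (log2 change 0.42, SE 0.18, limma adjusted p = 0.144, and 0.0409 without KO_chow replicate 1). Ifit1 had a log2 change of 0.30, Usp18 of 0.09, Ifit2 of 0.04, Trim25, a ubiquitin ligase of the RIG-I pathway, of -0.01 and Ifit3 of -0.13. The probes of Ifit genes, which lie in 1 cluster of related genes on chromosome 19, may read more than 1 family member.

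The oligoadenylate synthetase family had the largest median of the 7 role groups, 0.41, and all 5 changes lay above 0, but 0 of 5 were called. The active synthetases of this family make short oligoadenylates that activate RNase L, whereas Oasl1 is synthetase-like and restrains the translation of Irf7. Oasl1 was 6.15, 6.37, 6.29, 6.06 and 6.43 in WT_chow and 6.22, 7.87, 7.00, 6.38 and 7.07 in KO_chow. Replicates 2, 3 and 5 lay above all WT_chow mice, and replicates 1 and 4 lay among them. Its log2 change was 0.65 (SE 0.22, 1.56-fold, limma adjusted p = 0.0513), the largest in the set, and it was called without KO_chow replicate 1 (0.00934) or replicate 4 (0.0177).

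Oasl2 was 5.84, 5.50, 5.81, 5.86 and 6.00 in WT_chow and 5.76, 6.88, 6.21, 6.09 and 6.29 in KO_chow, so that 4 of 5 KO_chow mice exceeded every WT_chow mouse. Its log2 change was 0.44 (SE 0.16, limma adjusted p = 0.0708, and 0.0153 without KO_chow replicate 1). Oas1a, with both promoter elements, was 4.97, 4.77, 5.20, 4.77 and 4.68 against 5.22, 5.63, 5.26, 5.15 and 5.19. The groups overlapped through WT_chow replicate 3 (0.41, SE 0.15, limma adjusted p = 0.0757), and Oas1a was called without that mouse (0.0426). Oas3 and Oas2 had log2 changes of 0.17 and 0.08.

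**Figure D3:**
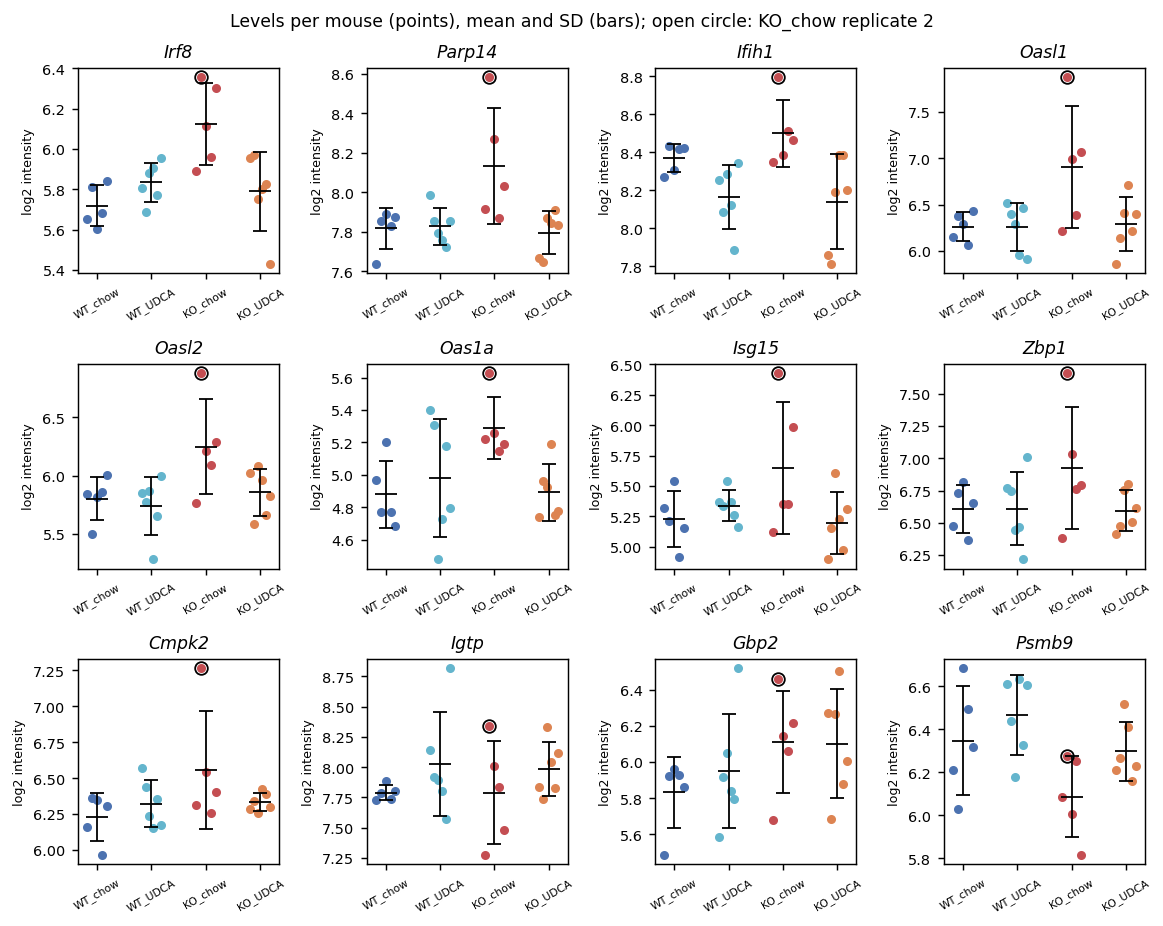
Log2 intensity (y axis, a separate range per gene) of 12 genes in every mouse by group, with bars for the mean and SD; the open circle is KO_chow replicate 2. In KO_chow this mouse is the top point for all 12 genes, and Irf8 is the gene whose other KO_chow points also lie above the WT_chow points.

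The 9 other antiviral effectors all had log2 changes above 0 in KO_chow, from 0.01 to 0.33 with a median of 0.26, and 0 of 9 were called. Parp14, an ADP-ribosyltransferase, was 7.64, 7.86, 7.89, 7.83 and 7.87 in WT_chow and 7.92, 8.58, 8.27, 7.87 and 8.03 in KO_chow. Only KO_chow replicate 4 overlapped with WT_chow (log2 change 0.32, SE 0.11, limma adjusted p = 0.0513). Parp14 was called without KO_chow replicate 1 (0.0246) or replicate 4 (0.0166).

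Cmpk2, a mitochondrial nucleotide kinase, was 6.16, 6.36, 6.35, 5.97 and 6.31 in WT_chow and 6.31, 7.26, 6.54, 6.26 and 6.41 in KO_chow. Most of its difference lay in replicate 2 (0.33, SE 0.14, limma adjusted p = 0.129). Xaf1, a pro-apoptotic protein, was 6.11, 6.08, 6.34, 6.17 and 6.39 against 6.33, 6.85, 6.47, 6.29 and 6.46 (0.26, SE 0.12, limma adjusted p = 0.154). Its groups overlapped, with 3 KO_chow mice above every WT_chow mouse. Bst2, the membrane tether that holds back virions, had a small and even difference, 9.65 ± 0.09 against 9.46 ± 0.05 (SD, n = 5 each, log2 change 0.19, limma adjusted p = 0.105). Rsad2, the antiviral enzyme viperin, had a log2 change of 0.30, Mx1 of 0.29, Rtp4 of 0.19, Ifi35 of 0.17 and Mx2 of 0.01. Most inbred laboratory mouse strains carry a defective Mx1, and its signal here was dim.

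The 6 GTPases had log2 changes from -0.21 to 0.28 with a median of 0.02. Of these, 4 lay above 0 and 0 were called. Gbp2, a guanylate-binding protein, was 5.49, 5.92, 5.96, 5.93 and 5.86 in WT_chow and 5.68, 6.46, 6.14, 6.06 and 6.22 in KO_chow (0.28, SE 0.17, limma adjusted p = 0.317). Igtp was 7.73, 7.79, 7.88, 7.73 and 7.81 in WT_chow and 7.28, 8.34, 8.01, 7.84 and 7.48 in KO_chow, so that its mean was the same to 2 decimals, 7.79, while its SD was 0.06 in WT_chow and 0.42 in KO_chow. Gbp3 and Gbp7 had log2 changes of -0.21 and -0.18, Irgm1 0.19 and Iigp1 0.03.

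Psmb9, a catalytic subunit of the immunoproteasome, was 6.21, 6.03, 6.68, 6.50 and 6.32 in WT_chow and 6.08, 6.28, 6.01, 6.25 and 5.82 in KO_chow. The groups overlapped (log2 change -0.26, SE 0.12, limma adjusted p = 0.172). Psmb8, another catalytic subunit, had a log2 change of 0.18, and Tap1, the peptide transporter encoded beside Psmb9, one of -0.15. Within antigen processing, 1 of 3 changes lay above 0.

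**Figure D4:**
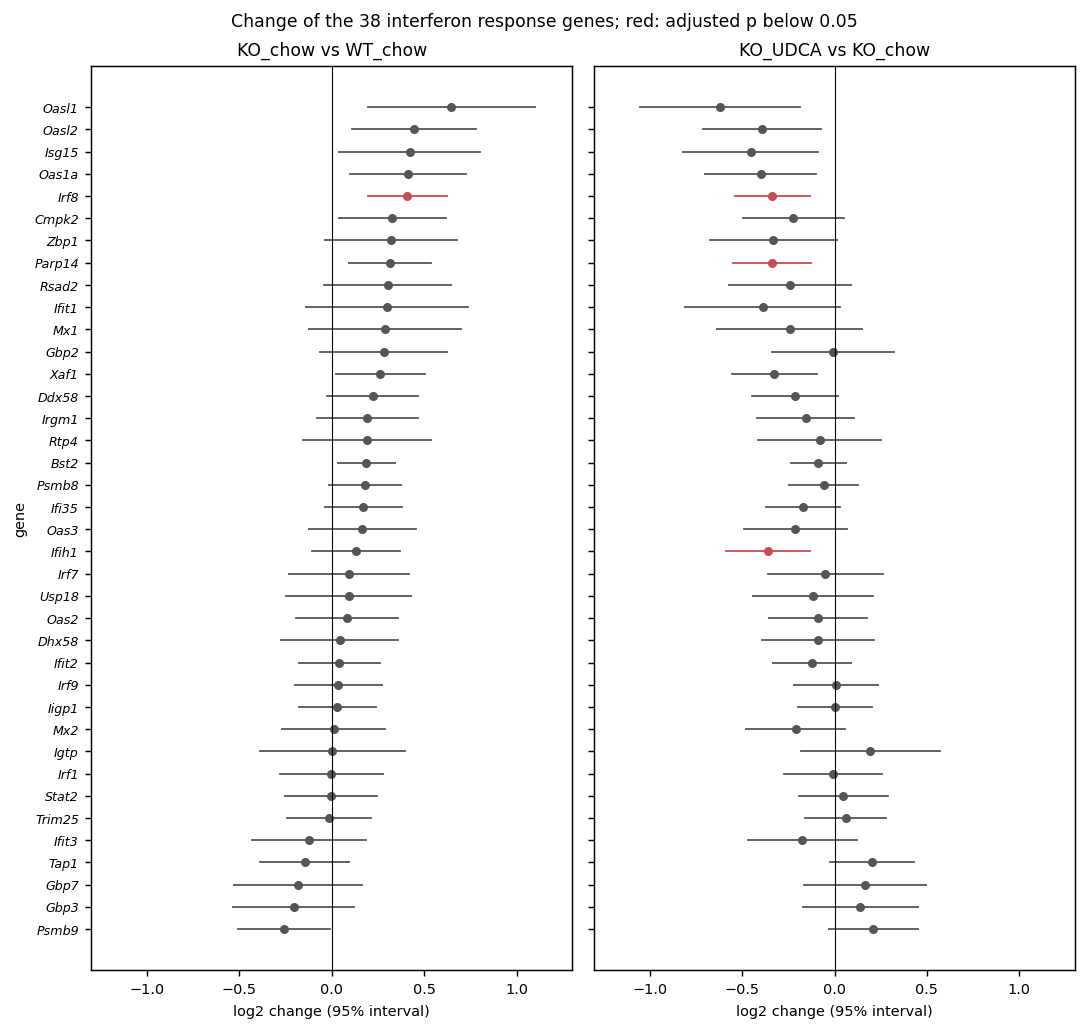
Log2 change with its 95% interval (x axis) of the 38 genes for KO_chow vs WT_chow and KO_UDCA vs KO_chow, ordered by the former; red marks an adjusted p below 0.05. Irf8 is red in both panels, Parp14 and Ifih1 in the panel of KO_UDCA vs KO_chow, and Oasl1 has the largest change in each (0.65 and -0.62).

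The effect of UDCA in the knockout was read by setting KO_UDCA against KO_chow. This uses the same KO_chow mice as the comparison with WT_chow, so a high KO_chow value enters both. Of the 38 genes, 3 fell and 0 rose, 7.89% of the set, against 11.2% of all genes called in either direction and 6.22% called lower (5.03% higher). The median log2 change was -0.14, against 0.03 over all genes, and 9 of the 38 lay above 0 (57% of all genes). At an unadjusted p below 0.05, 8 of the 38 were lower (11.2% of all genes) and 0 higher (12.7%). The groups overlapped in all 38 genes, while 3.27% of all genes did not overlap with KO_UDCA lower and 2.62% with KO_UDCA higher. Without KO_chow replicate 2, 0 of the 38 were called (6.88% of all genes), and the median was -0.05. Without KO_UDCA replicate 6, 0 were called as well (8.46% of all genes), and without KO_chow replicate 1, 8 were (13.0% of all genes). The number was 1 without KO_chow replicate 5 (6.8% of all genes) or KO_UDCA replicate 1, 2 or 3 (9.82%, 9.39% and 9.03%). It was 5 without KO_UDCA replicate 4 (10% of all genes).

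Irf8 fell under UDCA in the knockout. It was 5.43 to 5.97 with a median of 5.81 in the 6 KO_UDCA mice, against 5.89 to 6.36 in KO_chow. Only the 2 highest KO_UDCA mice reached the lowest KO_chow mouse. The log2 change was -0.34 (SE 0.10, 1.26-fold lower, limma adjusted p = 0.029). The call was lost without KO_chow replicate 2 (0.105), KO_chow replicate 5 (0.0973), KO_UDCA replicate 3 (0.0548) or KO_UDCA replicate 6 (0.0781), and with only these groups in the fit (0.108) or with array weights (0.0567). The KO_UDCA level, 5.79 ± 0.20, differed from that of WT_UDCA, 5.83 ± 0.10, by -0.05 (95% interval -0.24 to 0.15).

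Parp14 was 7.65 to 7.91 with a median of 7.84 in KO_UDCA. It overlapped with KO_chow, at 7.87 to 8.58, through KO_chow replicate 4. It fell by 0.34 on the log2 scale (SE 0.10, limma adjusted p = 0.0339). The call was lost without KO_chow replicate 2 (0.131) or 3 (0.087), and without KO_UDCA replicate 1 (0.0701), 2 (0.0745) or 6 (0.0519). With only these groups in the fit the limma adjusted p was 0.122, with array weights 0.0532 and with median centring 0.0528.

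Ifih1 was 7.81 to 8.39 with a median of 8.20 in KO_UDCA and 8.35, 8.79, 8.39, 8.51 and 8.46 in KO_chow. It fell by 0.36 (SE 0.11, limma adjusted p = 0.0357). Unlike Irf8, it had a lower mean in both UDCA groups: the level was 8.37 ± 0.07 in WT_chow (SD, n = 5) and 8.16 ± 0.17 in WT_UDCA (n = 6), a difference of -0.21 that was not called (limma adjusted p = 0.909). The call of Ifih1 in the knockout was lost without any one of KO_chow replicates 2, 4 and 5 or of KO_UDCA replicates 1, 2, 3 and 6 (limma adjusted p from 0.0512 to 0.132). With only these groups in the fit it was 0.108, and with array weights 0.0704.

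Other members with larger differences missed the threshold. Oasl1 was 5.86 to 6.71 with a median of 6.31 in KO_UDCA, against 6.22 to 7.87 in KO_chow (log2 change -0.62, SE 0.21, limma adjusted p = 0.0587), and it was called without KO_chow replicate 1 (0.0111) or 4 (0.021) or KO_UDCA replicate 4 (0.0385). Xaf1 was 5.92 to 6.43 with a median of 6.13 (-0.33, limma adjusted p = 0.0607), and was called without KO_chow replicate 1 (0.0476) or 4 (0.0373) or KO_UDCA replicate 4 (0.0315). Oas1a was 4.74 to 5.19 with a median of 4.85 (-0.40, limma adjusted p = 0.0803).

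Isg15 was 4.90 to 5.60 with a median of 5.19 in KO_UDCA (log2 change -0.45, limma adjusted p = 0.104, and 0.0282 without KO_chow replicate 1). Oasl2 was 5.58 to 6.08 with a median of 5.89 (-0.39, limma adjusted p = 0.11, and 0.0262 without KO_chow replicate 1). In every one of these genes the highest KO_chow value was that of replicate 2. Zbp1 was 6.42 to 6.80 (-0.33, limma adjusted p = 0.229) and Cmpk2 6.26 to 6.42, with an SD of 0.06 in KO_UDCA and 0.41 in KO_chow (-0.22, limma adjusted p = 0.333). By role the medians were -0.39 for the oligoadenylate synthetases, -0.27 for the sensors, -0.22 for the other antiviral effectors, -0.15 for the IFIT and ISG15 system, -0.01 for the transcription factors, 0.07 for the GTPases and 0.20 for antigen processing. Igtp, 7.74 to 8.33 in KO_UDCA, had a change of 0.19, Gbp2, 5.68 to 6.51, one of -0.01, and Psmb9, 6.16 to 6.52, one of 0.21.

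In the comparisons without KO_chow, 0 of the 38 genes were called. Between KO_UDCA and WT_UDCA, 4 of all genes were called (0.0167%), the median log2 change of the 38 was -0.03 and 0 of the 38 had an unadjusted p below 0.05 (5.45% of all genes). The changes ran from -0.23 for Ifit3 to 0.17 for Mx1, and the 95% intervals of all 38 lay between -0.51 and 0.54. Between WT_UDCA and WT_chow, 0 of all genes were called (0%) and the median was 0.04. The changes ran from -0.21 for Ifih1 to 0.24 for Igtp, whose mean in WT_UDCA, 8.02 ± 0.43 (SD, n = 6), holds replicate 6 at 8.82, and the intervals lay between -0.52 and 0.61. At an unadjusted p below 0.05, 0 of the 38 passed there (5.57% of all genes).

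Between KO_UDCA and WT_chow, 6 of all genes were called (0.025%), 0 of them in the set, and the median of the 38 was 0.01. Ifit3 and Ifih1 were lower at an unadjusted p below 0.05 (2.7% of all genes), with log2 changes of -0.30 and -0.23 and a limma adjusted p of 0.882 each. All 38 intervals lay between -0.60 and 0.60. The interaction, which asks whether the UDCA difference is unequal in the 2 genotypes, was called for 0 of the 38 and for 2.67% of all genes, with a median of -0.14 for the 38 and 0.02 for all genes. Irf8 had the smallest adjusted p there (-0.45, SE 0.14, limma adjusted p = 0.0849), and it was called without KO_chow replicate 1 (0.0384) or 4 (0.048). The interaction median of the 38 was -0.07 without KO_chow replicate 2. At an unadjusted p below 0.05, 5 of the 38 were lower for the interaction, against 8.46% of all genes.

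Other genes of the interferon pathway were read from lists of ligands, receptors, kinases, inducers and further targets, none of which holds a gene of the 38. The counts between KO_chow and WT_chow stand against 7.69% of all genes called higher and 6.03% called lower there, and those under UDCA in the knockout against 6.22% called lower and 5.03% called higher. Of 17 interferon genes measured, 0 were called, with a median log2 change of -0.11, and 10 of the 17 were below the median of the array in every mouse. At an unadjusted p below 0.05, 0 of the 17 were higher and 2 lower.

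Of 6 receptor chains, 4 rose and 0 fell (7.69% and 6.03% of all genes). Ifngr1, the ligand-binding chain of the interferon gamma receptor, was 7.45, 7.52, 7.53, 7.67 and 7.52 in WT_chow and 7.98, 8.82, 8.21, 7.97 and 9.05 in KO_chow. The groups did not overlap (log2 change 0.87, SE 0.15, 1.82-fold, limma adjusted p = 0.000436). Il10rb, a chain shared by the receptors of interferon lambda and interleukin 10, rose by 0.50 (limma adjusted p = 0.00494), and both calls held when any single mouse was left out. Ifngr2 rose by 0.48 (limma adjusted p = 0.0344), a call lost without any one of WT_chow replicates 1 to 5 or of KO_chow replicates 2 and 5 (0.0534 to 0.13). Ifnlr1, the specific chain of the interferon lambda receptor, rose by 0.63 (limma adjusted p = 0.0155), a call lost without KO_chow replicate 2 (0.057) or 5 (0.0548). The chains of the type I receptor, Ifnar1 and Ifnar2, had log2 changes of 0.02 (limma adjusted p = 0.914) and -0.10 (0.458).

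Under UDCA the same 4 receptor chains were called lower in the knockout (6.22% of all genes), by comparison with the same KO_chow mice. Ifngr1 was 7.51 to 7.80 with a median of 7.75 in KO_UDCA and did not overlap with KO_chow (log2 change -0.70, limma adjusted p = 0.00271), a call that held when any single mouse was left out. Il10rb fell by 0.44 (limma adjusted p = 0.0112), a call lost without KO_chow replicate 2 (0.0503). Ifngr2 and Ifnlr1 fell by 0.47 and 0.51 (limma adjusted p = 0.0347 and 0.0466), calls that rested on many mice: that of Ifngr2 was lost without any one of KO_chow replicates 2, 3 and 5 and KO_UDCA replicates 1, 2, 5 and 6 (0.0513 to 0.136), and that of Ifnlr1 without any one of KO_chow replicates 1, 2 and 5 and KO_UDCA replicates 1, 2, 3, 5 and 6 (0.0512 to 0.147).

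Of 9 genes of the kinase and feedback list, 4 rose and 0 fell between KO_chow and WT_chow (7.69% and 6.03% of all genes). Jak2, the kinase bound to Ifngr2, rose by 0.47 (SE 0.11, limma adjusted p = 0.00463), and the call held when any single mouse was left out. Jak1 rose by 0.33 (limma adjusted p = 0.0196), a call that ended when WT_chow replicate 1 or one of KO_chow replicates 2, 3 and 5 was left out (0.0558 to 0.073). The phosphatases Ptpn2 and Ptpn11 rose by 0.39 and 0.34 (limma adjusted p = 0.0182 and 0.0213). The call of Ptpn2 was lost without WT_chow replicate 2 (0.0508) or KO_chow replicate 5 (0.0695), and that of Ptpn11 without one of WT_chow replicates 1 and 4 and KO_chow replicates 2 and 5 (0.051 to 0.0759). Socs1 and Socs3, the feedback inhibitors that interferons induce, had log2 changes of -0.10 and 0.25 and were not called. Under UDCA, Jak2 fell by 0.57 (limma adjusted p = 0.000813) and Ptpn2 by 0.43 (0.00933).

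Of 13 genes of sensing and induction, 3 rose and 1 fell on chow (7.69% and 6.03% of all genes). The kinase Ikbke rose by 0.46 (limma adjusted p = 0.0176), the adaptor Myd88 by 0.46 (0.0213) and the DNA receptor Tlr9 by 0.34 (0.0352), while Mavs, the adaptor of RIG-I and MDA5, fell by 0.47 (0.0265). Leaving out KO_chow replicate 2 ended each of these calls, at 0.0677 for Ikbke, 0.0794 for Myd88, 0.0948 for Tlr9 and 0.0656 for Mavs. Ikbke was also lost without WT_chow replicate 5 (0.0533) or KO_chow replicate 3 (0.0609), and Myd88 without WT_chow replicate 1 (0.067) or KO_chow replicate 3 (0.0736). Mavs also ended without WT_chow replicate 2 (0.0626), WT_chow replicate 5 (0.0782) or KO_chow replicate 5 (0.0868), and Tlr9 without any one of WT_chow replicates 1, 3 and 5 or KO_chow replicates 3 and 5 (0.0589 to 0.11).

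**Figure D5:**
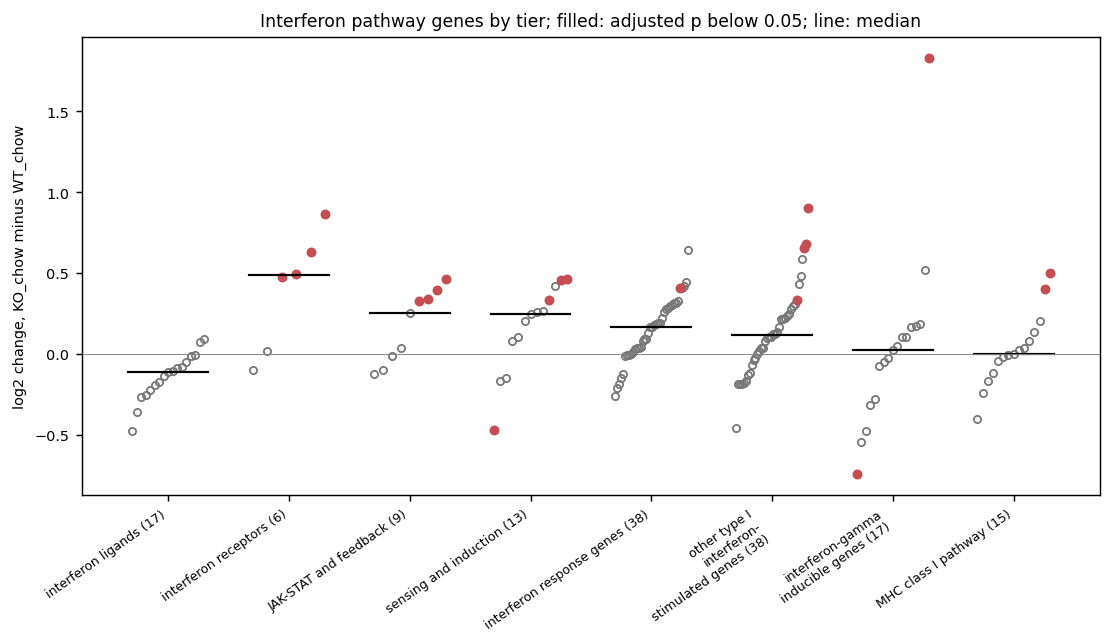
Log2 change between KO_chow and WT_chow (y axis) of the measured genes of each list (x axis, number of genes in brackets), 1 point per gene, filled where the adjusted p was below 0.05, with a line at the median. The receptors have the highest median (0.49), with 4 of 6 filled, and the 38 interferon response genes have 1 filled point and a median of 0.17.

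Among 38 further type I targets outside the set, 4 rose and 0 fell on chow, a share near that of all genes called higher (7.69%), with a median of 0.12. Ms4a4c, a membrane protein of the MS4A family, rose by 0.90 (1.87-fold, limma adjusted p = 0.00478), Oas1g, a close relative of Oas1a, by 0.68 (1.60-fold, 0.00682), Slfn2, a Schlafen family gene, by 0.65 (1.57-fold, 0.00253) and Ifitm2, which hinders viral entry, by 0.33 (1.26-fold, 0.0122). These calls held when any single mouse was left out. Oas1a and Oas1g are close in sequence, and whether their probes read both is not known here.

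The 17 genes counted as inducible by interferon gamma, chemokines and further GTPases among them, held 1 rise and 1 fall on chow, shares near those of all genes (7.69% and 6.03%). Cxcl10, a chemokine that draws T cells, was 5.25, 5.71, 5.27, 5.24 and 5.27 in WT_chow and 6.42, 7.63, 8.63, 5.26 and 7.97 in KO_chow. Its highest mouse was replicate 3, not replicate 2, and replicate 4 lay inside the WT_chow range. It rose by 1.83 (3.56-fold, limma adjusted p = 0.00216) and under UDCA fell by 1.65 in the knockout (limma adjusted p = 0.00467), and both calls held when any single mouse was left out. Gbp10 fell on chow by 0.74 (limma adjusted p = 0.0214), a call that ended without WT_chow replicate 2 (0.051), WT_chow replicate 3 (0.0548) or KO_chow replicate 5 (0.0761). Of 15 genes of the MHC class I pathway, Pdia3 and Calr, chaperones of the endoplasmic reticulum that load class I molecules among other tasks, rose by 0.50 (limma adjusted p = 0.000646) and 0.40 (0.00199), and 0 fell. With only KO_chow and WT_chow in the fit, Ifngr2, Jak1, Ptpn2, Ptpn11, Ikbke, Myd88, Tlr9, Mavs, Ifitm2 and Gbp10 were not called (limma adjusted p from 0.055 to 0.117). In that comparison without KO_chow replicates 2 and 5, of the genes called in these lists only Ifngr1, Pdia3 and Calr were called again.

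Under UDCA in the knockout, calls in these further lists went both ways. In sensing and induction, Mavs rose by 0.54 (limma adjusted p = 0.0106), a call that held when any single mouse was left out and was lost with only these groups in the fit (0.0511). Ikbke fell by 0.59 (limma adjusted p = 0.00302), and Myd88 fell by 0.41 (0.0373), a call lost without any one of KO_chow replicates 2, 3 and 5 and KO_UDCA replicates 1, 2, 3, 5 and 6 (0.0517 to 0.131). Among the genes inducible by interferon gamma, Gbp4, a guanylate-binding protein, rose by 0.56 (limma adjusted p = 0.0417), and Cxcl10 was the only fall. The call of Gbp4 was lost without any one of KO_chow replicates 1, 2 and 5 and KO_UDCA replicates 1, 2, 3, 4 and 6 (0.0548 to 0.134).

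Of the 38 further type I targets, 4 fell and 0 rose under UDCA (6.22% and 5.03% of all genes). Ms4a4c fell by 0.97 (limma adjusted p = 0.0026), a call that held when any single mouse was left out. Slfn2 fell by 0.48 (limma adjusted p = 0.0207), which was lost without KO_chow replicate 2 (0.0878), 3 (0.0523) or 5 (0.0783). Oas1g fell by 0.51 (limma adjusted p = 0.0366), which was lost without any one of KO_chow replicates 1, 2 and 5 and KO_UDCA replicates 1, 3, 5 and 6 (0.0564 to 0.14). Eif2ak2, the kinase PKR that halts translation on double-stranded RNA, fell by 0.35 (limma adjusted p = 0.0224), a call that ended when KO_chow replicate 2 (0.0889) or 5 (0.0533) or KO_UDCA replicate 2 (0.0522) was left out. In the MHC class I list, Pdia3 fell by 0.47 (limma adjusted p = 0.00103) and Calr by 0.31 (0.0133, and 0.0514 without KO_chow replicate 2). With only KO_UDCA and KO_chow in the fit, Ifngr2, Ifnlr1, Il10rb, Myd88, Mavs, Gbp4, Oas1g, Slfn2 and Eif2ak2 were not called. Their limma adjusted p ran from 0.0511 to 0.128. Without KO_chow replicates 2 and 5, only Ifngr1, Jak2 and Pdia3 of the pathway list genes called under UDCA were called again.

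Markers of several cell types differed between the same groups. The marker counts between KO_chow and WT_chow stand against 7.69% of all genes called higher and 6.03% called lower. Between KO_chow and WT_chow, 7 of 7 markers of monocyte-derived macrophages rose, among them Itgax by 2.01 and Ccr2 by 1.35 (limma adjusted p = 4.89e-09 and 3.57e-06). Their mean per mouse was 6.22 to 7.88 log2 units in KO_chow, highest in replicate 2, and 4.84 to 5.14 in WT_chow, 4.99 to 5.13 in WT_UDCA and 5.09 to 5.30 in KO_UDCA. Neutrophil markers rose in 5 of 6 genes, with means of 4.04 to 4.93 in KO_chow, again highest in replicate 2, and 3.82 to 3.94 in WT_chow.

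Of 6 markers of plasmacytoid dendritic cells, which can make much type I interferon, 2 rose. These were Siglech by 0.48 (limma adjusted p = 0.0122) and Ly6d by 4.20 (5.42e-08), a gene that other cells also use. Their mean was 5.29 to 5.91 in KO_chow, highest in replicate 5, and 4.60 to 4.69 in WT_chow, a difference carried mainly by Ly6d. Without Ly6d the mean of the other 5 was 4.57 to 4.82 in KO_chow and 4.35 to 4.55 in WT_chow. Kupffer cell markers fell in 5 of 8 and rose in 1, with means of 6.98 to 7.23 against 7.47 to 7.76, while 2 of 11 T and NK cell markers rose, with overlapping means of 4.42 to 4.58 and 4.43 to 4.64. Cholangiocyte markers rose in 6 of 6, with means of 6.20 to 6.97 in KO_chow and 4.96 to 5.13 in WT_chow. Stellate cell markers rose in 2 of 5, with means of 7.27 to 7.43 against 6.91 to 7.15. Of 6 sinusoidal endothelial markers, 1 rose and 1 fell, with overlapping means of 7.70 to 7.93 in KO_chow and 7.71 to 8.10 in WT_chow. Markers of conventional dendritic cells (5) and of B and plasma cells (5) were not called.

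Under UDCA in the knockout, where Irf8, Parp14 and Ifih1 fell, 7 of 7 markers of monocyte-derived macrophages fell, as did 6 of 6 cholangiocyte markers, 4 of 6 neutrophil markers and 2 of 6 plasmacytoid markers. Of 8 Kupffer cell markers 5 rose and 1 fell, sinusoidal endothelial markers rose in 2 of 6, T and NK cell markers rose in 1 of 11, and stellate cell markers rose in 1 and fell in 1 of 5. These marker counts stand against 6.22% of all genes called lower and 5.03% called higher. The part of any of these cells in the levels of Irf8 and of the other interferon response genes was not tested.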

How the data were processed

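The deposited values are array intensities that the authors obtained with the probe-level form of RMA and left unlogged, per the labels. No version of RMA and no genome build of the array annotation are stated in the sources used here. Of 24973 probe sets deposited, 24015 carried exactly 1 gene symbol and 958 none. RefSeq GRCm38.p6 matched 23922 by gene identifier and altered 0 symbols, and for 4 symbols with several probe sets the one of highest mean was kept, which left 24011 genes. The log2 of the deposited intensity was taken, with no pseudocount and no filter.

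Group means of the 4 groups were estimated in 1 limma fit (version 3.58.1, R 4.3.3; files were read with the data.table package, version 1.17.8) that held all 22 arrays. The 6 comparisons had two-sided p-values with Benjamini-Hochberg adjustment over 24011 genes and a threshold of 0.05. The arrays are of separate mice as labelled, and the number of mice limits the precision.

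The 38 genes, the other lists and the role groups were chosen with earlier results of these data known. Values per mouse are given for genes called in any comparison, the genes with the smallest p up to 8 and, in each role group, those with the largest change in either comparison with KO_chow; other genes are given by their fit or range. Ddx58 and the genes highest in single mice were named after their values were seen. Alternatives were the samples in the fit, array weights, the variance prior, quantile or median scaling, a pseudocount of 16, a filter on dim genes, the mean of a gene's rows, a term for the runs of title numbers (1 to 15 and 16 to 22, not called batches by the labels), each mouse left out, and KO_chow replicates 2 and 5 left out.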

Additional observations from a re-analysis of the deposited data

Results flagged for a closer look

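Each of the 38 genes was examined in each of the 4 groups for a mouse that stood far from the others of its group by Dixon's test, 152 groups of 5 or 6 mice in all. It marked 12 values, and chance marks about 1 in 20 such groups if values are normally distributed. The test was not run on genes outside the set, so no share of all genes stands beside these counts. KO_chow replicate 2 was the high value in 5 of the 12. These 5 are not separate events, because this mouse exceeded the mean of the other 4 KO_chow mice in all 38 genes. It had 9.068 log2 units for Ddx58, with 8.446 to 8.566 in the other 4 mice, and 6.99 for Dhx58, with 5.969 to 6.191 in the others. It had 5.583 for Ifit2 against 5.003 to 5.156, 5.63 for Oas1a against 5.149 to 5.257, and 7.264 for Cmpk2 against 6.257 to 6.544.

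WT_UDCA replicate 1 was high for Stat2, at 8.034 against 7.623 to 7.745 in the other WT_UDCA mice, and for Usp18, at 7.892 against 7.481 to 7.634. KO_UDCA replicate 4 was high for Rsad2, at 7.405 against 6.618 to 6.882. The low values were 5.022 for Ifit3 in KO_chow replicate 1 (others 5.638 to 5.848) and 4.731 for Oas3 in WT_chow replicate 4 (others 5.181 to 5.265). WT_chow replicate 1 was low for Parp14, at 7.639 (others 7.828 to 7.892), and for Gbp2, at 5.487 (others 5.861 to 5.963).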

How the results depend on the processing

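The number of interferon response genes called between KO_chow and WT_chow was 1 in the reported fit (13.7% of all genes). It was 2 with array weights (11.7% of all genes) or with a trended and robust variance prior (14.6%). The number was 3 with quantile normalization (14.4%) and 4 with a pseudocount of 16 (15.2%). Among genes brighter than the median gene it was 6 (of 37 left), where 29.6% of the brighter genes were called. It was 0 without KO_chow replicates 2 and 5 (4.54% of all genes), and 1 to 5 when single mice were left out (9.24% to 16%). Between KO_UDCA and KO_chow the number was 3 in the reported fit (11.2% of all genes). It was 0 with only the groups compared (6.06%), with array weights (8.53%) or without KO_chow replicates 2 and 5 (2.8%). Among the brighter genes it was 6 (25.3% of those genes), and 0 to 8 when single mice were left out (6.8% to 13.3% of all genes). For the interaction the number was 0 in the reported fit (2.67% of all genes). It was 1 among the brighter genes (7.76% of those genes) and 0 to 1 without single mice (1.25% to 5.08% of all genes). The other 3 comparisons gave 0 under each alternative run. The causes of these differences were not tested. The fit of the brighter genes also tested fewer genes, and the fits without some mice held fewer mice. The median change of the 38 kept its sign but not its size in the comparisons with KO_chow: between KO_chow and WT_chow it was 0.17 and ran from 0.04 to 0.19 over all alternatives, between KO_UDCA and KO_chow it was -0.14 (-0.19 to -0.03) and for the interaction -0.14 (-0.19 to -0.03), each nearest to 0 without KO_chow replicates 2 and 5. The sign turned for Igtp between KO_chow and WT_chow (reported 0.0014) with quantile normalization (-0.0007), median centring (-0.0151), the term for title numbers (-0.0026) and without KO_chow replicates 2 and 5 (-0.0801), and ran from -0.14 to 0.13 without single mice. It turned for Gbp2 between KO_UDCA and KO_chow (reported -0.0098) with array weights (0.0345), quantile normalization (0.01), median centring (0.0031) and without KO_chow replicates 2 and 5 (0.14), and ran from -0.118 to 0.0769 without single mice. Neither was called. The fit with only the groups compared cannot give the interaction. No paired analysis was possible because the replicate numbers follow the order of the records and no label links mice of different groups. The number of arrays limits what small changes can be seen: the median 95% interval of the 38 genes between KO_chow and WT_chow reached 0.28 log2 units to either side.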
